A study of Mus musculus with 24 samples.

Results

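The monocyte and dendritic cell genes described here are 10 protein-coding mouse genes, Ccr2, Lyz2, Ly6c2, Ms4a4a, Itgax, Flt3, Cd209a, Xcr1, Clec9a and Siglech, chosen by name and not by their values, out of 49315 genes in each count table. They were read in 24 libraries of intrahepatic cholangiocytes, the epithelial cells that line the bile ducts inside the liver. The cells were isolated on magnetic beads by an antibody, and libraries were made from the polyadenylated fraction of 500 ng of total RNA. The 8 groups were male and female dnTGFB mice given secretin, untreated dnTGFB mice, WT mice given secretin and untreated WT mice, with 3 libraries in each group. The dnTGFB mice carry dnTGFBRII, a dominant-negative form of the type II TGF-β receptor, and are used to model primary biliary cholangitis, an autoimmune disease of small bile ducts. In the mouse line generally known by that name the transgene is driven by a Cd4 promoter and so acts in T cells. Secretin, a gut hormone that makes bile duct cells secrete bicarbonate, was given by implanted osmotic pumps for 8 weeks at a daily dose of 4 µg per kg. The labels conflict for all WT secretin and all untreated dnTGFB libraries, of both sexes: groups here follow the sample titles, while the genotype field gives the transgene for every secretin-treated library and wild type for every untreated one. Secretin-treated mice were 40 weeks old at death and untreated WT mice 32 weeks, and for untreated dnTGFB mice no age is stated. Age and secretin therefore cannot be told apart in the comparison with untreated WT mice. As the samples are described, each group was 1 pool of cells from 6 to 8 mice, sequenced in triplicate. The p-values therefore reflect variation among libraries and not variation among mice. In some groups the libraries differed far more than repeat sequencing would make them, as given below.

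Monocytes leave the bone marrow by the chemokine receptor Ccr2 and become macrophages or dendritic cells in tissue. Dendritic cells take up antigen and present it to T cells, and they fall into conventional type 1 cells (Xcr1, Clec9a), which present material of dead cells to CD8 T cells, conventional type 2 cells, and plasmacytoid cells (Siglech), which make type I interferon. Dendritic cells of the resting liver lie largely around the portal tracts, where the bile ducts run. A bulk library of captured cholangiocytes reads them only through cells or RNA carried along with the capture, and more cells of a type and more RNA per cell cannot be told apart.

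The count tables give the genes by Ensembl identifier with GRCm38 coordinates. The genes of monocytes are Ccr2 at chr9:124101950-124113557, Lyz2 at chr10:117277334-117282274, Ly6c2 at chr15:75108158-75111970 and Ms4a4a at chr19:11375523-11392790. The genes of dendritic cells in general are Itgax at chr7:128129547-128150657 and Flt3 at chr5:147330741-147400489. Cd209a, a gene of monocyte-derived and type 2 dendritic cells, is at chr8:3743397-3748984. The genes of the named subsets are Xcr1 at chr9:123852315-123862029, Clec9a at chr6:129408862-129424763 and Siglech at chr7:55768178-55778925. Of the 50-base windows of the transcripts, 15.4% in Lyz2 also occurred in another gene, all of them in Lyz1, and 14.4% in Ly6c2, nearly all in Ly6c1. The counts of Lyz2 and Ly6c2 are therefore uncertain to the extent that the counting split such reads. The share was 8.0% in Itgax, all of it in Itgad, and 4.0% in Clec9a, all of it in Clec1b, with the same uncertainty. It was at most 1.9% in the other 6 genes.

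The 250 bases before the RefSeq gene start are shown for Cd209a and Siglech, and for Lyz2 and Ly6c2. Cd209a and Siglech had the largest fold changes of the 10 between male WT secretin and male WT. Lyz2 and Ly6c2 were the only 2 members in which the letters AGGAAGT were found on either strand. These letters are the core bound by PU.1-type ETS factors. For Siglech, Lyz2 and Ly6c2 the RefSeq start differs by a few bases from the coordinates given above. The sequences are from RefSeq on GRCm38.p6, 5′ to 3′ on the strand of the gene, and capitals mark a match to these letters or to their reverse complement. They lie at chr8:3748985-3749234 on the minus strand, chr7:55767934-55768183 on the plus strand, chr10:117282273-117282522 on the minus strand and chr15:75111972-75112221 on the minus strand.
Cd209a: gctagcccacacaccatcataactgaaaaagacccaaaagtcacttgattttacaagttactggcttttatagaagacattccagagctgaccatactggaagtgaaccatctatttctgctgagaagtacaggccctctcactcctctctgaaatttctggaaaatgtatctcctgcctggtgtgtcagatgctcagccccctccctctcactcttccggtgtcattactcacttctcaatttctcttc
Siglech: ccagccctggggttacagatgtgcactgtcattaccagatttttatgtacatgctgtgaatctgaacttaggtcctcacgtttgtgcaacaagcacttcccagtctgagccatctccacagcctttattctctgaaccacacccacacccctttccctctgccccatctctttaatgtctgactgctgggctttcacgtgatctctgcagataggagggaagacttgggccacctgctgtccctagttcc
Lyz2: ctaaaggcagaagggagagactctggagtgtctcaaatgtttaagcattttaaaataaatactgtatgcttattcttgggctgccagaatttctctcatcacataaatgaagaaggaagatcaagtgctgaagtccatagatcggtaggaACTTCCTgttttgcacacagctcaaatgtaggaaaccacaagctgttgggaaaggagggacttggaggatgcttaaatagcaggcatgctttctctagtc
Ly6c2: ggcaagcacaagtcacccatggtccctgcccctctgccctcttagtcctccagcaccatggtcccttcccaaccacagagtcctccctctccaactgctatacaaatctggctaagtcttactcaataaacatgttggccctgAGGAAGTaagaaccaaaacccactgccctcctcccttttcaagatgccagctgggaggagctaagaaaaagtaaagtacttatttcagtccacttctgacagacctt
In Lyz2 the match began at position -100 and in Ly6c2 at position -107 from the RefSeq gene start. The same letters occurred in 7.69% of 32851 windows of that length, and in 2 of the 10 members. TGTGGT, the core of RUNX sites, occurred in 3 members (Siglech, Lyz2 and Ly6c2) and in 14.05% of all windows on either strand. An interferon response element, read as GAAA repeated after any 2 bases, occurred in 0 of the 10 members and in 2.98% of all windows. Cd209a and Siglech, which are printed above with no capitals, therefore shared no AGGAAGT match with Lyz2 and Ly6c2 in this window.

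Total counts ranged from 1429218 in male dnTGFB library 3 to 104003184 in female WT secretin library 2. Cholangiocyte markers were present in every male library, with Krt19 at 352 to 369 CPM in dnTGFB secretin, 45.8 to 96.3 in dnTGFB, 171 to 192 in WT secretin and 155 to 273 in WT. In females Krt19 ran from 16.8 to 334 CPM. The share of counts from mitochondrial genes, which can mark RNA quality, was 5.31 to 5.66% in male dnTGFB secretin, 55.07, 55.03 and 11.44% in male dnTGFB, 19.38 to 19.46% in male WT secretin and 42.75, 9.73 and 9.75% in male WT, and it ran from 8.06 to 31.28% in females. Likeness of libraries was measured, at an equal depth, as a chi-square per gene, for which 1 is the noise of repeat sequencing. Male dnTGFB library 3 and male WT library 1 stood apart from their own groups, at 78.33 and 39.89 to their nearest group mate. All other male libraries were at 1.1 to 1.5. Male WT library 1 was nearest to male dnTGFB library 2, at 7.21. Male dnTGFB library 3 was nearest to male WT secretin library 1, at 46.83. In females only 6 of 12 libraries had a group mate as their nearest library. Female dnTGFB secretin library 3 and female WT secretin library 1 differed by only 1.43. Female dnTGFB secretin library 1 and female WT library 2 differed by 1.15. Female dnTGFB library 3 was nearest to female WT library 1, at 4.76, against 47.49 to its nearest group mate. Female dnTGFB library 2 was nearest to female WT secretin library 3, at 3.2, against 3.81 to its nearest group mate. In 4 female libraries, dnTGFB 1 and 2 and WT secretin 2 and 3, the heart muscle gene Myh6 stood at 20527 to 27887 CPM and the Y-linked gene Ddx3y at 55.1 to 98.5 CPM, against at most 849 and 6.4 CPM in the other 8. Male dnTGFB library 3 held Myh6 at 3216 CPM and the neuronal gene Snap25 at 2403 CPM, against at most 263 and 352 CPM in the other male libraries. Xist, the RNA of the inactive X chromosome, stood at 30.1 to 37.4 CPM in male WT secretin, at 1.17 to 10.1 in male dnTGFB and at 0.166 to 1.45 in male dnTGFB secretin and male WT. The part of these features in the results was not tested. Results without the libraries that stand apart are given beside each male comparison, and for the female estimates named below.

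Levels are given in CPM, read counts relative to library size, with the library sizes scaled by TMM within each sex. All 10 genes passed the filter on low counts in both sexes. A gene passed the test at a Benjamini-Hochberg adjusted p under 0.05 over all genes tested by the edgeR quasi-likelihood test, in a fit of the 12 libraries of a sex, and was then called higher or lower. The male comparisons share libraries with each other, as do the female ones.

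**Figure D1:**
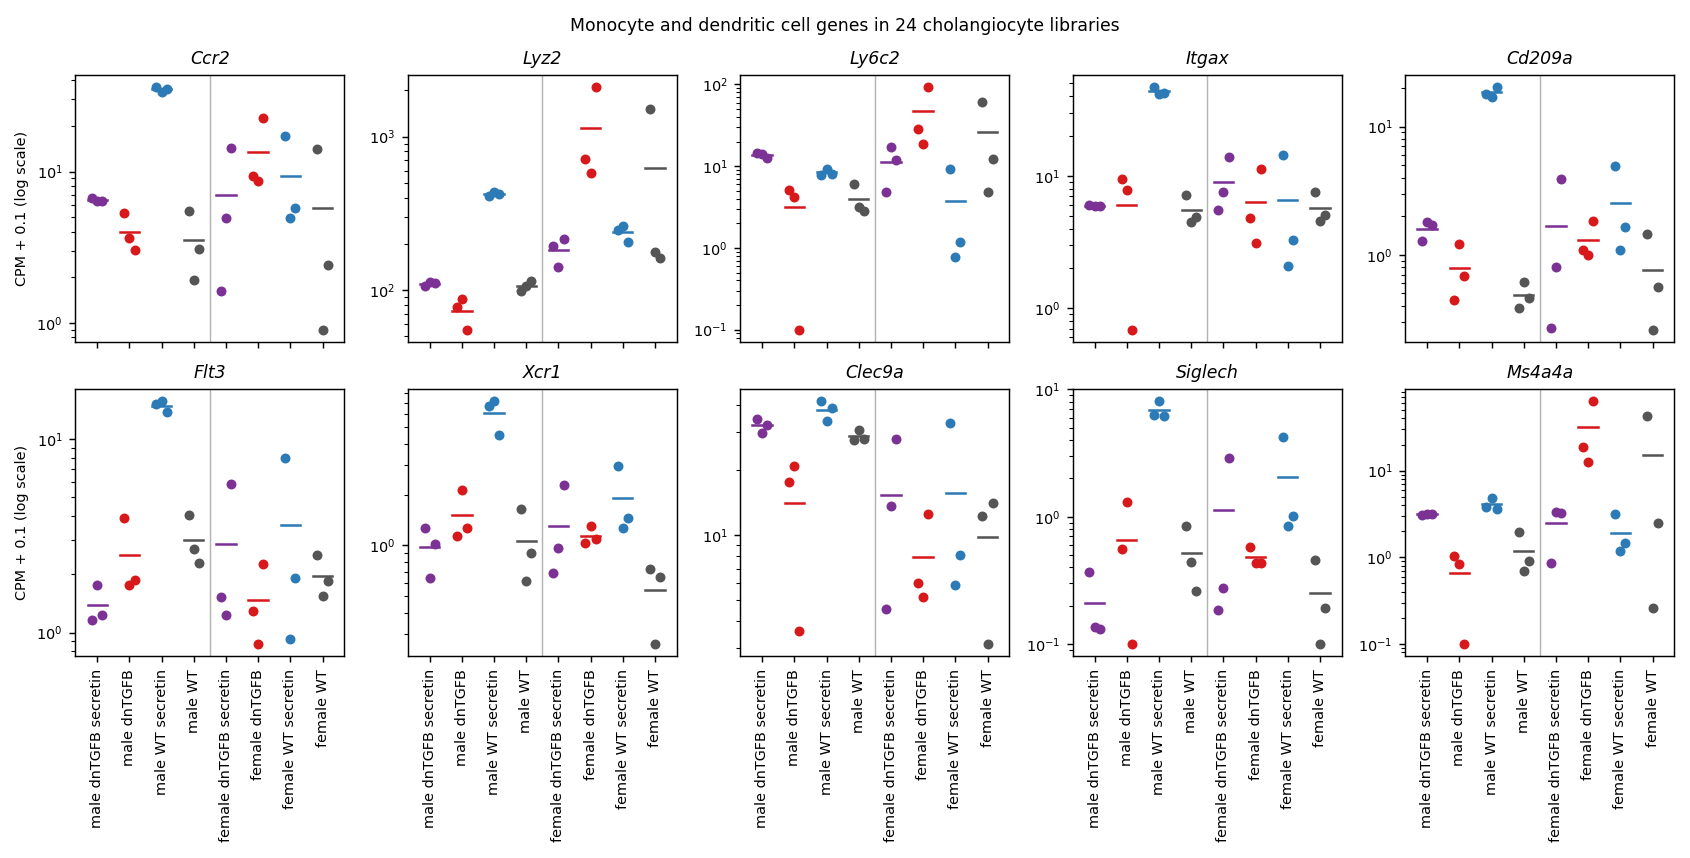
Level of each of the 10 genes in every library, in CPM plus an offset of 0.1 on a log axis; points are libraries, bars are group means (n = 3), males left and females right of the grey line. The male WT secretin libraries lie above the other male libraries in Ccr2, Lyz2, Itgax, Cd209a, Flt3, Xcr1, Siglech and Ms4a4a, while the female groups spread widely.

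Of the male comparisons of pairs of groups that were tested, that of secretin-treated with untreated WT mice had the most of these genes called. Of the 10 genes, 8 were higher in male WT secretin than in male WT and 0 lower, with a median log2 fold change of 2.5, where 6.22% of the 18777 genes tested passed (3.55% higher, 2.67% lower) and the median was 0. All 10 had every WT secretin library above every WT library, which held for 22.0% of the genes tested. The differences spanned genes of monocytes, of dendritic cells in general, and of type 1, type 2 and plasmacytoid dendritic cells. The genotype field gives the transgene for the male WT secretin libraries, so by that label genotype and secretin cannot be told apart here.

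Cd209a, a C-type lectin of monocyte-derived and type 2 dendritic cells related to human DC-SIGN, had the largest fold change of the 10 in this comparison. It stood at 18.0, 16.9 and 20.4 CPM in male WT secretin, against 0.282, 0.511 and 0.363 CPM in male WT. These are 454, 345 and 388 reads in the treated libraries and 6, 12 and 9 reads in the untreated ones. The log2 fold change was 5.55 ± 0.37 (SE), about 46.9-fold, with an adjusted p of 6.95e-05. The lectin Siglech, a surface marker of mouse plasmacytoid dendritic cells, stood at 6.19, 8.00 and 6.04 CPM in male WT secretin and at 0.751, 0.341 and 0.161 CPM in male WT. Its log2 fold change was 4.01 ± 0.7 (adjusted p = 0.00889), and it rests on 16, 8 and 4 reads in the WT libraries. Both genes thus had few reads in male WT and 115 or more in every male WT secretin library.

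Ccr2, the receptor for the chemokine Ccl2, stood at 36.3, 33.5 and 35.1 CPM in male WT secretin, against 5.40, 1.83 and 2.98 CPM in male WT. The difference was 3.36 ± 0.34 on the log2 scale, about 10.3-fold (adjusted p = 0.00049). Lyz2, the lysozyme of monocytes, macrophages and neutrophils, stood at 412, 439 and 426 CPM in male WT secretin and at 98.5, 106 and 114 CPM in male WT. It was the most abundant of the 10 in every library, and its log2 fold change was 2 ± 0.18 (adjusted p = 0.000301). Ms4a4a, a four-span membrane protein of macrophages and monocytes, stood at 3.73, 4.76 and 3.52 CPM in male WT secretin against 1.88, 0.596 and 0.806 CPM in male WT, with a log2 fold change of 1.87 ± 0.45 (adjusted p = 0.0345). The call of Ms4a4a was lost with the replicate number as a block, without male WT library 2 or 3 and without any of the 3 male WT secretin libraries, and its adjusted p reached 0.141 over the alternatives. Ly6c2, the Ly6C antigen of inflammatory monocytes, did not pass, at 7.77, 9.23 and 7.93 CPM in male WT secretin and 5.96, 3.07 and 2.70 CPM in male WT (adjusted p = 0.22). The gene that is usually taken as the surface mark of inflammatory monocytes thus had a smaller estimate than their chemokine receptor.

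Itgax encodes CD11c, the integrin chain used to mark mouse dendritic cells. It stood at 47.2, 41.5 and 42.6 CPM in male WT secretin, against 7.13, 4.39 and 4.83 CPM in male WT, a log2 fold change of 3.01 ± 0.42 (adjusted p = 0.00274). Flt3, the receptor for the growth factor that drives dendritic cell formation, stood at 15.0, 15.6 and 13.7 CPM in male WT secretin and at 3.94, 2.60 and 2.18 CPM in male WT, a log2 fold change of 2.35 ± 0.34 (adjusted p = 0.00305). Neither gene had an overlap between the groups, and in each the WT secretin libraries lay closer together than their distance to male WT.

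The genes of type 1 dendritic cells differed from each other. Xcr1, the receptor for the chemokine Xcl1, stood at 6.58, 7.07 and 4.41 CPM in male WT secretin against 1.55, 0.511 and 0.806 CPM in male WT, a log2 fold change of 2.66 ± 0.46 (adjusted p = 0.00795). Clec9a, a lectin that binds actin exposed by dead cells, stood at 41.5, 33.4 and 38.7 CPM in male WT secretin and at 27.5, 30.4 and 27.8 CPM in male WT, and did not pass (log2 fold change 0.41 ± 0.34, adjusted p = 0.561). Per kilobase of transcript, Clec9a stood at 8.35, 9.25 and 8.43 CPM per kb in male WT and Xcr1 at 0.348, 0.115 and 0.181 CPM per kb, so the level of Clec9a per length was far above that of Xcr1 in untreated mice.

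**Figure D2:**
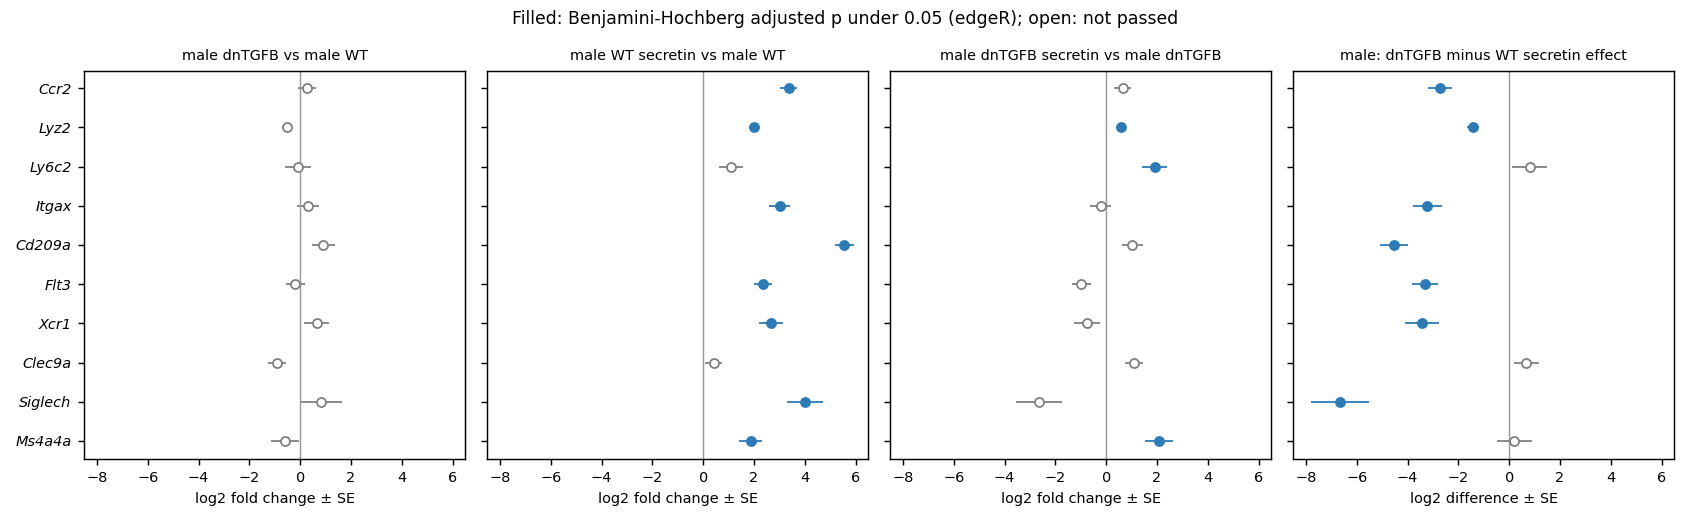
Log2 fold changes ± SE of the 10 genes in the male comparisons and, at the right, the difference between the secretin effects (dnTGFB minus WT); filled points passed the edgeR test and open points did not. In WT mice 8 points are filled, all to the right of 0, and at the far right 7 points are filled, all to the left of 0.

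Related genes from the other lists gave the following counts in the same comparison of male WT secretin with male WT. Of 20 other monocyte genes 6 were higher and 0 lower, with a list median of 0.81 on the log2 scale. Among them the fractalkine receptor Cx3cr1 averaged 22.8 ± 1.83 CPM in WT secretin and 3.12 ± 0.306 CPM in WT (SD, n = 3 each), a log2 fold change of 2.87 ± 0.33 by the edgeR test. The adhesion molecule Itgam (CD11b) averaged 16.6 CPM in WT secretin and 4.06 CPM in WT, and the matrix proteoglycan Vcan 7.55 and 1.76 CPM. Of 11 other type 2 dendritic cell genes tested, 5 were higher and 0 lower, led by the galactose-binding lectins Clec10a, at 15.9 CPM in WT secretin against 1.2 in WT, and Mgl2, at 9 against 0.696 CPM.

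Of 12 other type 1 genes 3 were higher and 0 lower, among them the integrin Itgae (CD103), at 5.31 CPM in WT secretin and 0.656 CPM in WT. The transcription factor genes of this lineage were not among them: Irf8 stood at 98.8 to 120 CPM in WT secretin and 206 to 259 CPM in WT, and Batf3 at 8.19 to 8.83 and 5.36 to 6.38 CPM. Of 15 other plasmacytoid genes 3 were higher and 0 lower, among them the chemokine receptor Ccr9, at 2.66 CPM in WT secretin and 0.271 CPM in WT, while their transcription factor Tcf4 stood at 147 to 151 CPM in WT secretin and 195 to 216 CPM in WT. Of 16 genes shared by dendritic cells or marking migratory ones, 1 was higher (Clec4n) and 1 lower, the actin-bundling protein Fscn1, at 74.2 CPM in WT secretin against 163 CPM in WT. Of 13 growth factors, their receptors and chemokines 0 passed the edgeR test, and 4 had an unadjusted p under 0.05.

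Markers of other cell types moved beside these genes in male WT. B cell markers were lower for 5 of 8, with a summed level of 111 to 118 CPM in WT secretin and 198 to 362 CPM in WT. Mesothelial markers were higher for 5 of 6, summed at 119 to 130 CPM in WT secretin and 46.8 to 55.9 CPM in WT. Kupffer cell and macrophage markers, whose cells also express Lyz2, were higher for 2 of 14 and summed to 1196 to 1224 CPM in WT secretin and 1112 to 1489 CPM in WT, and the Kupffer cell lectin Clec4f stood at 138 to 144 and 86.4 to 138 CPM. Neutrophil markers were higher for 1 of 13, summed at 68.8 to 76.9 CPM in WT secretin and 33.0 to 290 CPM in WT, with the neutrophil antigen Ly6g at most 0.147 CPM in WT secretin and 0.469 CPM in WT. Cholangiocyte markers passed in 0 of 10, summed at 2373 to 2414 CPM in WT secretin and 1927 to 3073 CPM in WT, and hepatocyte markers in 0 of 10, summed at 12595 to 13324 CPM in WT secretin and 2721 to 12885 CPM in WT. The hepatocyte product Alb stood at 8886, 9046 and 9363 CPM in male WT secretin and at 8043, 1568 and 1561 CPM in male WT. The part of these cell types, of the mitochondrial share and of the Xist level of the WT secretin libraries, in the result was not tested.

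Without the male libraries that stand apart, all 10 genes were higher in male WT secretin than in male WT, in a fit in which 19.9% of all genes were higher and 20.6% lower. Cd209a was then at 5.38 ± 0.3 on the log2 scale, Siglech at 4.73 ± 0.52, Ly6c2 at 1.52 ± 0.19 and Clec9a at 0.38 ± 0.1. In that fit hepatocyte markers were higher for 9 of 10 and lower for 1, neutrophil markers higher for 10 of 13, T cell and NK cell markers higher for 9 of 12, mesothelial markers higher for 6 of 6, and B cell and endothelial markers lower for 8 of 8 each. The part of these cells in the calls was not tested. The call of Siglech was lost without male WT library 2 (adjusted p = 0.0532).

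The untreated dnTGFB and WT males differed less in these genes. Of the 10 genes 0 passed the edgeR test between male dnTGFB and male WT, 2 had an unadjusted p under 0.05, and 17.0% of all genes passed (8.55% higher, 8.46% lower). The median log2 fold change of the 10 was 0.08, and that of all genes 0.01. The smallest adjusted p-values were those of Lyz2, at 77.8, 87.7 and 55.2 CPM in male dnTGFB and 98.5, 106 and 114 CPM in male WT (adjusted p = 0.0682), and of Clec9a, at 17.5, 20.8 and 3.52 CPM in male dnTGFB and 27.5, 30.4 and 27.8 CPM in male WT (adjusted p = 0.101). In both genes every dnTGFB library lay below every WT library, a pattern found in 19.9% of all genes. DESeq2 called both of them lower, where it called 26.6% of all genes. The count was 1 without male dnTGFB library 1 (Cd209a, higher), where 20% of all genes passed. It was 2 without library 2 (Lyz2 and Clec9a, lower), where 22.4% passed, and 3 without library 3 (these and Itgax, higher), where 34.2% passed, so that these counts are near the share of all genes. In the shallow male dnTGFB library 3, Ly6c2, Siglech and Ms4a4a had 0 reads and Itgax 1 read.

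The libraries of both groups overlapped in the other 8 genes. Ccr2 stood at 5.19, 3.52 and 2.94 CPM in male dnTGFB against 5.40, 1.83 and 2.98 CPM in male WT, and Cd209a at 0.346, 1.11 and 0.587 CPM against 0.282, 0.511 and 0.363 CPM. Without the libraries that stand apart 7 genes passed, where 47.4% of all genes did: Ccr2, Ly6c2, Itgax, Xcr1 and Siglech were higher in dnTGFB, by 0.65 to 1.77 on the log2 scale, and Lyz2 (-0.41 ± 0.06) and Clec9a (-0.6 ± 0.13) lower. In that fit neutrophil markers were higher in dnTGFB for 12 of 13, T cell and NK cell markers for 11 of 12 and hepatocyte and neuronal markers for 10 of 10 each, while B cell markers were lower for 8 of 8 and Kupffer cell markers for 12 of 14. With all libraries, of 20 other monocyte genes 0 were higher and 3 lower in male dnTGFB. The counts were 0 and 3 of 12 other type 1 dendritic cell genes and 0 and 2 of 11 other type 2 genes. They were 1 and 3 of 15 other plasmacytoid genes, and 1 and 3 of 16 shared or migratory dendritic cell genes. In the same fit 11 of 14 Kupffer cell markers, 8 of 8 B cell markers and 8 of 10 cholangiocyte markers were lower in male dnTGFB, and 10 of 10 neuronal markers were higher. Kupffer cell markers summed to 231 to 694 CPM in male dnTGFB and 1112 to 1489 CPM in male WT, and the part of these cells in the levels of the members was not tested.

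In dnTGFB males, 3 of the 4 monocyte genes among the 10 were called higher with secretin, and none of the 6 dendritic cell genes among them passed. This split depends on the threshold. By the edgeR test Lyz2 passed at an adjusted p of 0.0406, while Clec9a and Siglech missed at 0.0511 and 0.0528. Of the 10 genes 3 were higher and 0 lower in male dnTGFB secretin than in male dnTGFB. Of all genes 22.6% passed (10.1% higher, 12.4% lower), so that the count of members passing is near the share of all genes. Ms4a4a stood at 2.98, 3.04 and 3.06 CPM in male dnTGFB secretin, against 0.923, 0.741 and 0 CPM in male dnTGFB, a log2 fold change of 2.07 ± 0.54 (edgeR adjusted p = 0.0221). Ly6c2 stood at 14.3, 14.2 and 12.5 CPM in male dnTGFB secretin and at 5.08, 4.08 and 0 CPM in male dnTGFB, a log2 fold change of 1.9 ± 0.51 (adjusted p = 0.025). Lyz2 stood at 107, 113 and 111 CPM in male dnTGFB secretin and at 77.8, 87.7 and 55.2 CPM in male dnTGFB, a log2 fold change of 0.58 ± 0.18 (adjusted p = 0.0406). Every dnTGFB secretin library lay above every dnTGFB library in these 3 genes and in Ccr2, Cd209a and Clec9a, a pattern found in 22.8% of all genes, and below in Flt3, as in 18.2% of all genes. Every male dnTGFB secretin library had more Ly6c2 than every other male library.

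The estimates of the 6 dendritic cell members had both signs, and none of the 6 passed. Siglech stood at 0.265, 0.0362 and 0.0316 CPM in male dnTGFB secretin, which are 8, 1 and 1 reads, and at 0.462, 1.20 and 0 CPM in male dnTGFB (adjusted p = 0.0528). Flt3 stood at 1.06, 1.66 and 1.14 CPM in male dnTGFB secretin and at 3.81, 1.67 and 1.76 CPM in male dnTGFB (adjusted p = 0.0798). Cd209a stood at 1.19, 1.70 and 1.61 CPM in male dnTGFB secretin and at 0.346, 1.11 and 0.587 CPM in male dnTGFB. The Cd209a levels of both groups were far below those of male WT secretin. Clec9a stood at 34.3, 29.5 and 32.3 CPM in male dnTGFB secretin and at 17.5, 20.8 and 3.52 CPM in male dnTGFB (adjusted p = 0.0511). Ccr2 stood at 6.56, 6.33 and 6.25 CPM in male dnTGFB secretin, against 5.19, 3.52 and 2.94 CPM in male dnTGFB, and Itgax at 5.90, 5.79 and 5.78 CPM against 9.35, 7.69 and 0.587 CPM.

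These counts turned on single libraries. Without the libraries that stand apart 8 genes passed, where 46.6% of all genes did: Ccr2, Lyz2, Ly6c2, Clec9a and Ms4a4a were higher in dnTGFB secretin, and Itgax (-0.53 ± 0.15), Flt3 (-1.05 ± 0.33) and Siglech (-2.88 ± 0.7) lower. Leaving out male dnTGFB secretin library 2 or 3 left 0 genes, where 5.46 and 6.14% of all genes passed, and leaving out library 1 left 1 (Siglech, lower), where 5.39% passed. Without male dnTGFB library 2 the number was 6, where 26.2% of all genes passed, and without male dnTGFB library 3 it was 7, where 37.4% passed. Without male dnTGFB library 1 it was 2, where 25% of all genes passed. Except in that last case, the share of all genes moved in the same direction as the count. The call of Lyz2 was also lost with the replicate number as a block. In the same comparison, with all libraries, 11 of 14 Kupffer cell markers and 10 of 10 cholangiocyte markers were higher in dnTGFB secretin, while 9 of 10 neuronal, 4 of 10 hepatocyte, 4 of 8 B cell and 3 of 12 T cell and NK cell markers were lower and 1 B cell marker was higher. Kupffer cell markers summed to 1341 to 1364 CPM in dnTGFB secretin and 231 to 694 CPM in dnTGFB, and cholangiocyte markers to 4761 to 4848 and 596 to 880 CPM. Of 20 other monocyte genes 3 were higher, the Fc receptors Fcgr1 and Fcgr4 and the growth factor receptor Csf1r, the last at 80.2 CPM in dnTGFB secretin and 33 CPM in dnTGFB, and 1 was lower. Of 11 other type 2 dendritic cell genes 4 were higher and 0 lower, among them Clec10a at 4.93 CPM in dnTGFB secretin and 1.29 CPM in dnTGFB. Of 12 other type 1 genes 4 were higher and 1 lower, among them the transcription factor Batf3, at 10.8 CPM in dnTGFB secretin and 3.76 CPM in dnTGFB. Of 15 other plasmacytoid genes 3 were higher and 1 lower. Of 16 genes shared by dendritic cells or marking migratory ones 2 were higher and 1 lower, among them the transcription factor Zbtb46, at 68.8 CPM in dnTGFB secretin and 30.6 CPM in dnTGFB. The part of these other cell types and of the mitochondrial share in the member results was not tested.

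**Figure D3:**
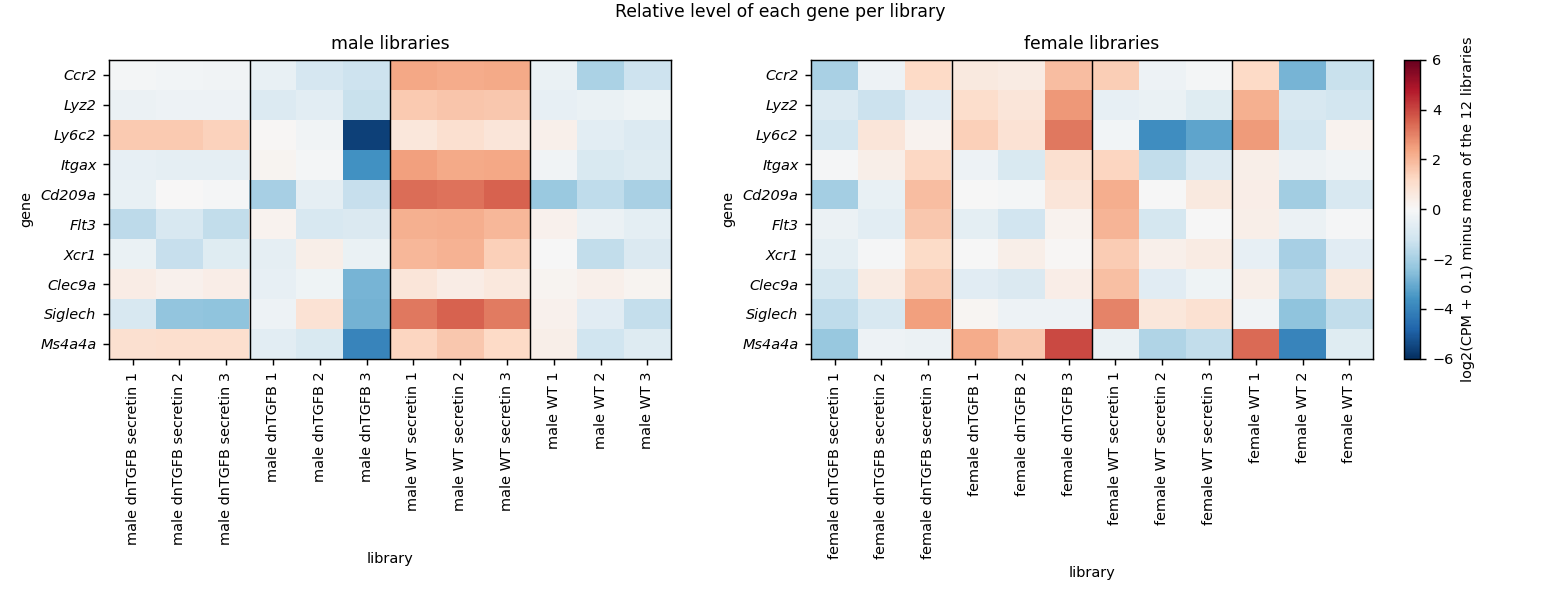
Relative level of each gene in each library as log2 of CPM plus 0.1, minus the mean over the 12 libraries of that sex; red is above and blue below that mean, and black lines part the groups. In males the red block of dendritic cell genes covers the 3 WT secretin libraries; in females dnTGFB secretin library 3 and WT secretin library 1 are red in these genes, and the dnTGFB libraries and WT library 1 in Lyz2, Ly6c2 and Ms4a4a.

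The effect of secretin in males differed between genotypes for 7 of the 10 genes, all with a lower effect in dnTGFB mice, where 7.51% of all genes had a lower and 8.10% a higher effect. Within dnTGFB the log2 estimates of Siglech, Flt3, Xcr1 and Itgax were negative, at -2.65, -0.98, -0.76 and -0.22, and none of them passed. The test was the interaction term of the edgeR fit, which subtracts the secretin effect in WT from that in dnTGFB. The difference was -6.67 ± 1.13 on the log2 scale for Siglech, -4.52 ± 0.55 for Cd209a and -3.42 ± 0.67 for Xcr1, with adjusted p-values of 0.00503, 0.000966 and 0.00923. It was -3.32 ± 0.5 for Flt3, -3.22 ± 0.58 for Itgax and -2.71 ± 0.47 for Ccr2, with adjusted p-values of 0.00276, 0.00661 and 0.00538, and -1.43 ± 0.25 for Lyz2 (adjusted p = 0.00592). For Ly6c2, Ms4a4a and Clec9a the interaction did not pass, so that a difference between genotypes was not shown for these 3. The genotype field contradicts the titles for the male WT secretin and male dnTGFB libraries, which enter each of these differences. By that field genotype and secretin coincide in all male libraries, so that a difference between genotypes is defined only by the titles. Of 12 other type 1 dendritic cell genes 5 had a lower and 1 a higher effect in dnTGFB, of 20 other monocyte genes 3 and 1, and of 11 other type 2 genes 1 and 0. Of 15 other plasmacytoid genes 3 had a lower and 2 a higher effect in dnTGFB (list median 0.08), and of 16 shared or migratory dendritic cell genes 1 and 2 (list median 0.38). Among the other cell types, 6 of 14 Kupffer cell and 8 of 10 cholangiocyte markers had a higher effect in dnTGFB and 0 a lower one, and a lower effect was called for 5 of 6 mesothelial, 3 of 10 hepatocyte, 3 of 10 neuronal and 3 of 12 T cell and NK cell markers. The part of these cells was not tested.

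Without the male libraries that stand apart, the interaction passed for the same 7 genes, all with a lower effect in dnTGFB, where 48.9% of all genes passed (25.1% higher, 23.8% lower). It was then -7.61 ± 0.91 for Siglech, -4.42 ± 0.62 for Cd209a, -4.01 ± 0.6 for Xcr1 and -3.78 ± 0.21 for Itgax on the log2 scale. It was -3.68 ± 0.42 for Flt3, -3.28 ± 0.29 for Ccr2 and -1.53 ± 0.08 for Lyz2. In that fit a lower effect in dnTGFB was also called for 12 of 12 T cell and NK cell, 12 of 13 neutrophil and 10 of 10 hepatocyte markers, and a higher one for 9 of 10 cholangiocyte, 11 of 14 Kupffer cell and 8 of 8 endothelial markers.

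By the group means, the order of the male groups was not the same for all 10 genes. For Ccr2 the means were 35.0 ± 1.44 CPM in WT secretin, 6.38 ± 0.162 in dnTGFB secretin, 3.88 ± 1.17 in dnTGFB and 3.40 ± 1.82 in WT (SD, n = 3 each), and the last 2 groups overlapped. For Ly6c2 they were 13.7 ± 0.968 CPM in dnTGFB secretin, 8.31 ± 0.798 in WT secretin, 3.05 ± 2.69 in dnTGFB and 3.91 ± 1.79 in WT, with the untreated groups overlapping. For Clec9a the libraries of WT secretin (mean 37.8 ± 4.12 CPM) and dnTGFB secretin (32.0 ± 2.38 CPM) overlapped, and only dnTGFB, at 13.9 ± 9.16 CPM, was apart from all others.

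In female mice none of the 10 genes passed the edgeR test in any comparison, and in the comparisons of pairs of groups 0% of the 19882 genes tested passed. At an unadjusted p under 0.05 the count was 0 of 10 for female dnTGFB against female WT, 4 for female WT secretin against female WT and 2 for female dnTGFB secretin against female dnTGFB. DESeq2 called 0 of the 10 in each, where it called 3.69% of all genes for female dnTGFB against female WT, 13% for female WT secretin against female WT and 2.07% for female dnTGFB secretin against female dnTGFB. The interaction of secretin and genotype passed for 0 of the 10 genes, at an unadjusted p under 0.05 for 0 as well, where it passed for 18.0% of all genes, among them 10 of 10 heart muscle markers. Without the 4 libraries with heart muscle transcripts 0% of all genes passed that interaction.

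The libraries within a female group differed widely in these genes. Female dnTGFB secretin library 3 and female WT secretin library 1, the pair that differed by 1.43 chi-square per gene, were both high in the genes of dendritic cells. Cd209a stood at 0.167, 0.697 and 3.82 CPM in female dnTGFB secretin, at 0.997, 0.898 and 1.73 in female dnTGFB, at 4.83, 0.987 and 1.54 in female WT secretin and at 1.34, 0.160 and 0.461 in female WT. Siglech stood at 0.0837, 0.174 and 2.81 CPM in female dnTGFB secretin, at 0.474, 0.331 and 0.332 in female dnTGFB, at 4.14, 0.751 and 0.908 in female WT secretin and at 0.358, 0 and 0.0922 in female WT. Flt3 showed the same libraries as the highest, at 1.42, 1.14 and 5.78 CPM in female dnTGFB secretin, 1.19, 0.773 and 2.16 in female dnTGFB, 7.86, 0.825 and 1.82 in female WT secretin and 2.41, 1.44 and 1.75 in female WT. In all 3 genes the pair of near-identical libraries carried the highest values of 2 groups that differ in genotype.

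Xcr1 was the 1 gene in which all female dnTGFB libraries, at 0.931, 1.20 and 0.997 CPM, lay above all female WT libraries, as did 11.9% of all genes. Siglech and Xcr1 were the 2 genes in which all female WT secretin libraries lay above all female WT libraries, a pattern found in 13.2% of all genes. Xcr1 stood at 2.87, 1.16 and 1.36 CPM in female WT secretin and at 0.626, 0.160 and 0.553 CPM in female WT, an estimate of 1.94 ± 0.67 on the log2 scale (edgeR adjusted p = 0.14). For Siglech the estimate was 3.5 ± 1.45 (adjusted p = 0.166), with 4, 0 and 1 reads in the WT libraries. Another fit left out the 4 female libraries of the closest pairs across groups, dnTGFB secretin 1 and 3, WT secretin 1 and WT 2. It kept female dnTGFB 2 and 3, which were also nearest to a library of another group. The estimates were then 1.02 ± 0.42 for Xcr1 and 1.78 ± 0.68 for Siglech. Without the 4 libraries with heart muscle transcripts they were 2.6 ± 1 and 4.6 ± 1.96, with WT secretin library 1 alone in its group and assumed to vary like the other groups. None of these passed. Ccr2 stood at 17.2, 4.85 and 5.68 CPM in female WT secretin and at 13.9, 0.800 and 2.31 CPM in female WT, with overlap. Itgax stood at 14.2, 1.99 and 3.18 CPM in female WT secretin against 7.42, 4.48 and 4.98 CPM in female WT, so that 2 treated libraries were below and 1 above all untreated ones. Clec9a stood at 4.44, 13.5 and 27.6 CPM in female dnTGFB secretin, 5.92, 5.10 and 12.4 in female dnTGFB, 32.7, 5.76 and 7.99 in female WT secretin and 12.1, 3.04 and 14.0 in female WT.

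Lyz2, Ly6c2 and Ms4a4a were high in other female libraries. Lyz2 stood at 195, 142 and 214 CPM in female dnTGFB secretin, at 716, 577 and 2114 in female dnTGFB, at 248, 260 and 207 in female WT secretin and at 1524, 177 and 161 in female WT. Ms4a4a stood at 0.753, 3.24 and 3.11 CPM in female dnTGFB secretin, at 18.8, 12.6 and 63.3 in female dnTGFB, at 3.03, 1.08 and 1.36 in female WT secretin and at 42.8, 0.160 and 2.40 in female WT. Ly6c2 stood at 4.77, 17.0 and 11.8 CPM in female dnTGFB secretin, at 28.1, 18.8 and 93.9 in female dnTGFB, at 9.24, 0.677 and 1.07 in female WT secretin and at 61.7, 4.80 and 12.1 in female WT. Female dnTGFB library 3 and female WT library 1 were the highest 2 libraries in all 3 genes. By chi-square per gene this dnTGFB library was nearest to that WT library, at 4.76, against 47.49 to its nearest group mate. The 3 dnTGFB libraries were above all female secretin-treated libraries in these genes.

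In the comparison of female dnTGFB secretin with female dnTGFB, the libraries did not overlap in these 3 genes, and all were lower in dnTGFB secretin, a pattern found in 9.12% of all genes. The estimates were -2.63 ± 0.87 on the log2 scale for Lyz2, -2.07 ± 1.16 for Ly6c2 and -3.72 ± 1.41 for Ms4a4a, with edgeR adjusted p-values of 0.266, 0.339 and 0.266. Without the closest pairs across groups, which leaves dnTGFB secretin library 2 alone in its group, they were -2.97 ± 1.53, -1.43 ± 1.22 and -3.25 ± 1.77. Without the libraries with heart muscle transcripts, which leaves dnTGFB library 3 alone, they were -3.48 ± 1.14, -3.01 ± 1.19 and -4.67 ± 1.88, and none passed in either fit. Male libraries had the opposite estimates in the same comparison, and a difference between the sexes was not tested. Of the libraries compared here, female dnTGFB 1 and 2 carried heart muscle transcripts, summed at up to 72931 CPM, and the integrin Itgam stood at 2.93, 6.87 and 9.42 CPM in female dnTGFB secretin and 26.8, 19 and 90.2 CPM in female dnTGFB. Kupffer cell markers summed to 969 to 1517 CPM in female dnTGFB secretin and 738 to 2774 CPM in female dnTGFB, and neutrophil markers to 19.8 to 122 and 58.6 to 281 CPM. The part of these cells in the levels was not tested.

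**Figure D4:**
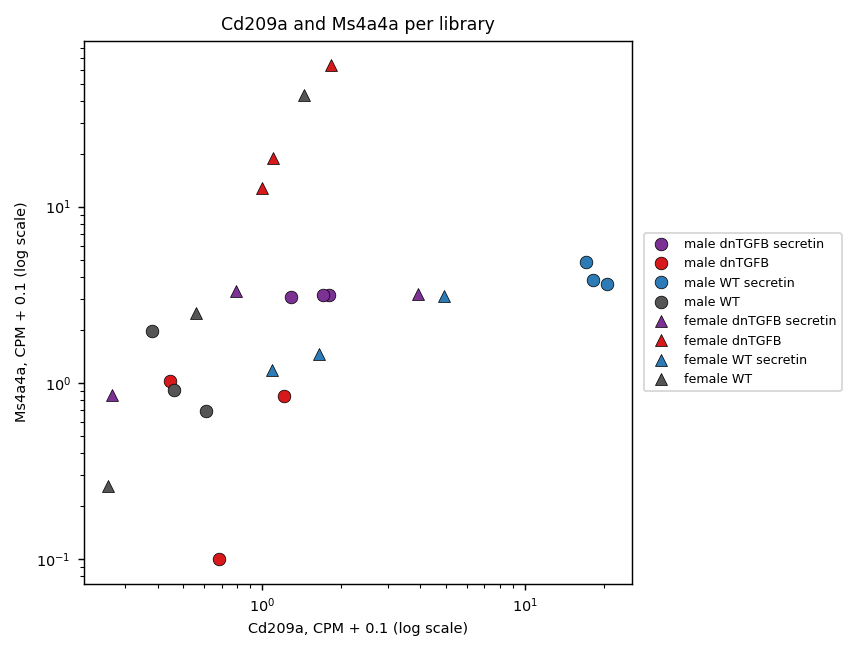
Cd209a (x axis) and Ms4a4a (y axis) in each of the 24 libraries, in CPM plus 0.1 on log axes; circles are male and triangles female libraries, coloured by group. The 3 male WT secretin libraries lie at the far right with Ms4a4a at 3.52 to 4.76 CPM, and the female dnTGFB libraries and female WT library 1 lie at the top with Cd209a at 0.898 to 1.73 CPM.

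Over all 24 libraries the members fell into patterns that did not follow the textbook subsets in every case. Likeness was measured as the root mean square difference between log2 profiles centred on their own mean, over 24 libraries and 15909 genes, with no test. The closest members were Flt3 and Itgax, at 0.82, followed by Ccr2 and Xcr1 at 0.85, Ccr2 and Cd209a at 0.87, and Flt3 and Xcr1 at 0.87. Clec9a and Xcr1, both used to mark type 1 dendritic cells, differed by 1.14, and the profile nearest to Clec9a among members was that of Itgax, at 1.02. Among all genes, the profiles nearest to Clec9a were Xlr3b and Edn1, the gene of the vasoconstrictor endothelin 1, both at 0.42.

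Lyz2 had the closest match of the 10, with Trem2, a lipid-sensing receptor of macrophages, at 0.36, and Ms4a6c at 0.46. Ly6c2 was nearest to the immunoglobulin segment Igkv15-103 at 0.68 and to Fpr2, a formyl peptide receptor of neutrophils and monocytes, at 0.71. Ms4a4a was nearest to Ly6i at 0.92 and to Fpr2 at 0.95. Ccr2 was nearest to Card9, an adaptor of C-type lectin signalling in myeloid cells, at 0.7 and to Plcb2 at 0.76, and Itgax to Spn (CD43) at 0.66 and the integrin Itgb7 at 0.71. Flt3 was nearest to St8sia2 at 0.56 and to Wdfy4, which type 1 dendritic cells need for cross-presentation, at 0.75. Cd209a was nearest to Ccr2 itself at 0.87 and to Cx3cr1 at 1.06. Xcr1 was nearest to Prrg3 at 0.62 and to the elastin gene Eln at 0.64, and Siglech to the immunoglobulin segment Ighv11-2 at 1 and to Bdkrb2 at 1.15. The libraries share depth and content, and these values describe likeness only.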

How the data were processed

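RNA of captured mouse cholangiocytes was measured in 24 libraries. The authors deposited 1 table of raw read counts per library, whole numbers for 49315 Ensembl genes, and the counts were used as deposited. How reads were aligned and counted, and whether by strand, was not given in the sources used here. Whether reads of overlapping antisense genes were kept apart is therefore not known. Coordinates matched GENCODE M21 (GRCm38) for 44823 genes, and 49056 identifiers are in it; symbols were taken from there. Groups were taken from the titles, since in 12 libraries, all those of WT secretin and untreated dnTGFB, the genotype field contradicts the title.

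For each sex, 12 libraries entered a single fit in edgeR 4.0.16 (R 4.3.3) with 1 mean per group, TMM scaling, filterByExpr (minimum count 10) and the quasi-likelihood F test with robust dispersions, after a check on simulated counts. A gene passed at a Benjamini-Hochberg adjusted p under 0.05 over all genes tested. SE was derived as log2 fold change, without its sign, over the root of the F statistic. CPM uses TMM-scaled totals of the sex, and group errors are SD with n = 3. Depth was 1429218 to 104003184 counts.

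Libraries were thinned to 1400000 counts for the chi-square, keeping genes that sum to 10 or more. Profile likeness used TMM over 24 libraries, a prior count of 1 and genes with a mean of at least 1 CPM. Alternatives were DESeq2 1.42.0, its size factors in edgeR, library totals, no filter and a filter with a minimum count of 50, a replicate block, fits of the compared groups alone, and leaving out each library. Some sets left out libraries that stand apart, that carry heart muscle transcripts or that form the closest pairs across female groups. These sets were chosen after seeing the data. The members were chosen by name and not by their values. The other lists, and the comparison by nearest profile, were chosen with earlier results of these data known. Named genes are the members, the 2 nearest profiles of each, and up to 3 passing genes per list and comparison by size of change. Transcription factors, Clec4f, Krt19, Myh6, Snap25, Ly6g, Ddx3y and Xist were named as checks.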

Additional observations from a re-analysis of the deposited data

Results flagged for a closer look

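In males the effect of secretin (treated minus untreated, log2) differed between dnTGFB and WT mice for 7 of the 10 genes, by the test of the difference itself in the edgeR fit. The differences, dnTGFB minus WT, were -6.67 for Siglech (adjusted p = 0.00503), -4.52 for Cd209a (0.000966), -3.42 for Xcr1 (0.00923), -3.32 for Flt3 (0.00276), -3.22 for Itgax (0.00661), -2.71 for Ccr2 (0.00538) and -1.43 for Lyz2 (0.00592). All 3 male dnTGFB secretin libraries and all 3 male WT secretin libraries enter each of them, and 7.51% of all genes had a lower effect in dnTGFB. The groups of 3 libraries were too small to look for single outlying values. The male WT secretin libraries, which set the high side of each difference, also held Xist at 30.1 to 37.4 CPM, and its part was not tested. Their genotype field, like that of the male dnTGFB libraries, contradicts their titles. By that field genotype and secretin coincide, so that a difference between genotypes is defined only by the titles. Each group was 1 pool of cells, so that the test does not measure variation among mice. Age goes with secretin in the WT part of each difference.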

How the results depend on the processing

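The count of members whose secretin effect differed between male genotypes was 7 under every alternative and without any library. With library totals alone the 7 were 6 lower and Clec9a higher, and Lyz2 had an adjusted p of 0.134. The count for male WT secretin against male WT was 8, and it lay between 6 and 8 without single libraries, at 7 with a replicate block, which lost Ms4a4a, at 10 in the fit of those groups alone and at 10 without the libraries that stand apart. Between male dnTGFB and male WT it was 0, and it was 2 with DESeq2, 2 with library totals alone, 7 without the libraries that stand apart, and 0 to 3 without single libraries. Between male dnTGFB secretin and male dnTGFB it was 3, and it was 6 with DESeq2, 6 with library totals alone, 0 in the fit of those groups alone, 8 without the libraries that stand apart, 2 with a replicate block, which lost Lyz2, and 0 to 7 without single libraries. In females the count was 0 under every alternative but 1: without female WT secretin library 1, Ly6c2 was lower in WT secretin than in WT, where 25.7% of all genes passed (8.76% lower), so that leaving out single libraries gave 0 to 1. The causes of these shifts were not tested. Of 18 results for single genes, 287 values under alternatives gave 264 with the same direction and call, 23 that lost the call and 0 that changed direction.

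Library totals alone moved the median log2 fold change of all genes from -0.05 to 0.75 for male dnTGFB secretin against male dnTGFB, with 6689 genes higher and 837 lower against 1900 and 2337 with TMM. For male dnTGFB against male WT they moved it from 0.01 to -0.44, with 1011 higher and 4212 lower against 1606 and 1589. For the interaction it moved from -0.07 to 0.5, with 3231 and 553 against 1521 and 1410, and for male WT secretin against male WT from 0 to 0.19, with 653 and 210 against 666 and 502. Replicate numbers did not pair the libraries: correlations of same-numbered deviations ran from -0.19 to 0.25, and the block changed no count by more than the values given. Counts near 0 in the shallow male dnTGFB library 3 limit what can be seen for Siglech, Ly6c2, Ms4a4a and Itgax.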
